A study of Mus musculus with 16 samples.

Results

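The 80 genes described here encode proteins of the cytosolic ribosome, 49 of the large subunit (Rpl genes) and 31 of the small subunit (Rps genes), out of 36950 gene rows in the table. They were chosen by symbol alone: Rpl or Rps with a number and an optional a, l or x, plus Rplp0, Rplp1, Rplp2 and Rpsa, with pseudogene rows and the Rps6k kinases left out. Genes of the same ribosome whose names follow other patterns, such as Fau, Rack1 and Rps3a1, are therefore not among the 80. The cells were left ventricle cells of 16 male mice from a model of pressure load, TAC, made by tying the aorta so that the heart ejects against a higher pressure. Stages are named in weeks: 0w, 2w and 11w have 2 mice each, 8w has 3 and 5w has 7. The labels give neither strain, genotype nor age, and do not say whether 0w mice had surgery, so 0w is used only as the first stage. Some digests used collagenase II with protease XXIV and were meant to favour myocytes, and others used a papain enzyme and were meant to favour the remaining cells.

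Each ribosome carries a nearly fixed set of these proteins, built around ribosomal RNA, and their messenger RNAs are among the most abundant of most cells. Many begin with a run of pyrimidines, the terminal oligopyrimidine tract, through which growth signals control their translation together. A few members have a paralog with a narrower pattern. Rpl3l replaces Rpl3 in ribosomes of heart and skeletal muscle, Rpl10l and Rpl39l are best known from male germ cells, and Rps27l is a close copy of Rps27 known as a target of p53.

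The table counts unique molecular identifiers (UMIs), tags that mark single captured RNA molecules, in 11492 cells, with a median of 41574 UMIs a cell. The authors' annotation names 6 types. CM stands for cardiomyocytes, MP for macrophages, EC for endothelial cells, FB for fibroblasts and T for T cells, while GN is not explained. Each of the first 5 types carried its own fixed marker list at a higher median level than it had in any of the other 4. Cells are not replicates, so UMIs were summed per mouse and type where a mouse had at least 10 cells, which left 16 mice with MP, 14 with CM, 13 with EC, 12 with FB and 11 with T. Sums held between 290555 UMIs (an EC sum) and 64663684 UMIs (a CM sum). Genes encoded in mitochondria took 56.0% of all UMIs and varied widely between mice, so shares are given per non-mitochondrial UMI. The cells came from 12 plates, here lettered A to L, and only plate E held mice of different stages (5w replicate 1 and 8w replicate 1). Stage and plate therefore cannot be told apart, other than within plate E. Cardiomyocytes of those 2 mice had summed cardiomyocyte marker levels of 10303 and 12699 CPM (counts per 1e6 non-mitochondrial UMIs), below the 23066 to 80863 of the other 12 mice. Plates G, H and K had totals that differed from the UMI number in the authors' annotation.

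The start regions of the paralogs and their partners are shown because paralog and partner are compared below and the tract is a feature known from many of these genes. Each line gives 15 bases before and 15 bases from the start of the first transcript RefSeq lists in GRCm38.p6, on the gene's own strand, with a tract in capitals. For Rpl39l and Rps27l that start lies inside the outer bounds of the gene, and Rpl3 is named only.
Rpl3l: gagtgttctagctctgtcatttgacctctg
Rps27: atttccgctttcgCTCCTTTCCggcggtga
Rps27l: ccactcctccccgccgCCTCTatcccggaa
Rpl39: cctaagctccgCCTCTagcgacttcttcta
Rpl39l: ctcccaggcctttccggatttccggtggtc
Rpl10: gttgttacagtggaagataggccgcctata
Rpl10l: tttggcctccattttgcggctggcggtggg
The windows lie at chr17:24727811-24727840 for Rpl3l, chr3:90213634-90213663 for Rps27, chr9:66946071-66946100 for Rps27l, chrX:37085208-37085237 for Rpl39, chr16:10170213-10170242 for Rpl39l, chrX:74270801-74270830 for Rpl10 and chr12:66284387-66284416 for Rpl10l. A tract here is a C followed by at least 4 pyrimidines that starts within 5 bases of the annotated start, on the gene's strand. It was found in 27 of the 60 members with a RefSeq window (45.0%), against 18.5% of all 27025 RefSeq genes with one. The genes Rpl3l and Rpl3 themselves lie at chr17:24727826-24736143 and chr15:80077781-80083406. Rps27 and Rps27l both had a tract and Rpl10 and Rpl10l both lacked it at that place, while Rpl39 had one and Rpl39l and Rpl3l had none.

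The 80 members together took 8622600 UMIs, 2.61% of all non-mitochondrial UMIs. Rpl39l had 1316 UMIs in the whole table and Rpl10l 1764, too few to follow in most single mice. Reads of these genes are also shared with processed pseudogenes. The rows of ribosomal protein pseudogenes held 36.3 UMIs for each 100 UMIs of members, and for Rpl21 they held 95.3% of the UMIs of the gene and its pseudogenes together. Of the members named below, Rpsa (78.9%), Rpl31 (67.9%), Rps16 (67.5%) and Rpl36a (51.4%) had most of their family's UMIs in pseudogene rows, and their values are uncertain for that reason. That share was 35.7% for Rpl3 and 24.0% for Rps18. Rpl3l, Rpl4, Rpl39l, Rpl10l, Rps27 and Rps27l have no pseudogene row.

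Among the 5 explained types, cardiomyocytes gave the smallest part of their RNA to ribosomal proteins and T cells the largest. In CM the members took 1.75% ± 0.38 of non-mitochondrial UMIs (SD, n = 14 mice), in MP 2.53% ± 0.45 (n = 16), in EC 2.85% ± 0.56 (n = 13), in FB 3.06% ± 0.46 (n = 12) and in T 4.46% ± 1.03 (n = 11). The CM values ran from 1.00% to 2.44% with a median of 1.76%, and the T values from 2.88% to 5.76% with a median of 4.45%, so the mice of these 2 types did not overlap. Among the 9 mice with all 5 types, CM was lowest in 9 and T was highest in 8. CM stood below FB in 10 of 10 mice, below EC in 12 of 12, below MP in 14 of 14 and below T in 9 of 9. The order also held within plates, where CM was above FB in 0 of 11 combinations of mouse and plate, above EC in 0 of 12, above MP in 0 of 17 and above T in 0 of 8. FB, EC and MP were closer: FB was above EC in 9 of 11 mice and EC was above MP in 8 of 13. With all UMIs as the base, CM was again lowest in 9 of 9 mice, and T was highest in 6 of 9. Mitochondrial genes took 68.7% ± 13.9 of UMIs in CM (SD, n = 14) and 32.9% ± 13.9 in FB (SD, n = 12), and their part in the difference between types was not tested beyond the choice of base. A lower share cannot separate less ribosomal protein RNA per cell from more RNA of other genes.

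**Figure D1:**
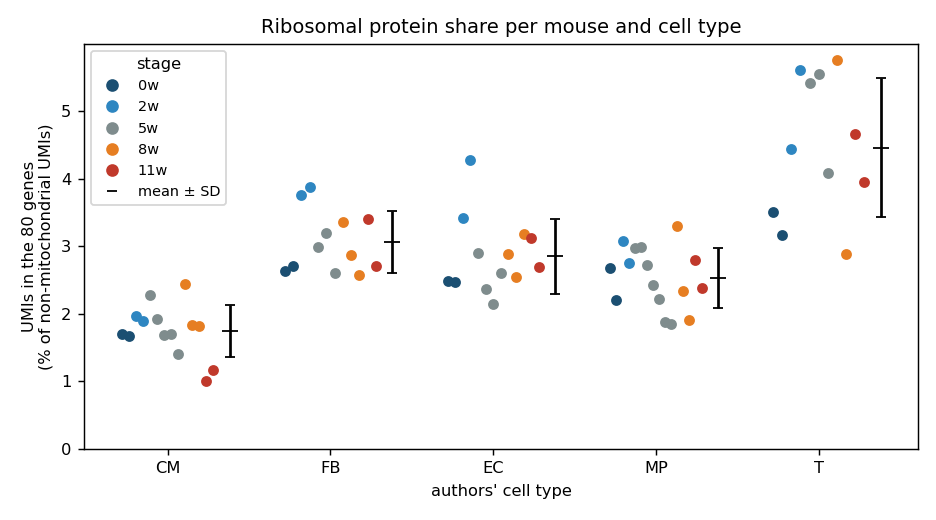
The vertical axis is the percent of non-mitochondrial UMIs in the 80 ribosomal protein genes, and each point is 1 mouse with at least 10 cells of the type on the horizontal axis, coloured by stage, with the mean and SD in black. CM values lie between 1.00% and 2.44% and T values between 2.88% and 5.76%.

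Gene by gene, T cells had the broadest difference. Each type was compared with the mean of the other 4 by edgeR's quasi-likelihood test with the mouse as a block, and genes were called at a Benjamini-Hochberg adjusted p under 0.05 over 13887 genes. The types are the authors' annotation of the same cells, so these tests describe how steady a difference was over mice. In T, 45 of 80 members were called higher and 1 lower, where 22.7% of all genes tested were called, 7.41% higher and 15.3% lower. The members' median log2 fold change was 0.54, against -0.35 over all genes. The rise covered both subunits, with 25 of 31 small subunit genes and 20 of 49 large subunit genes higher.

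Rps18, a small subunit protein, had a median of 598 CPM (here with library sizes scaled by the trimmed mean of M-values) in T, with a range of 271 to 1053 over 11 mice. Its medians in the other types ran from 195 in CM to 358 in FB. The T and other ranges overlapped, and with the mouse as a block Rps18 was higher in T by a log2 fold change of 1.00 ± 0.15 (SE; edgeR adjusted p = 5.6e-07). Rpl3, which lies near the site of peptide bond formation, followed with 0.98 ± 0.16 (SE; edgeR adjusted p = 2.8e-06) and Rpl19, a large subunit protein, with 0.89 ± 0.15 (SE; edgeR adjusted p = 7.3e-06). The single member called lower in T was Rps27l, at -0.73 ± 0.27 (SE; edgeR adjusted p = 0.0413), while its partner Rps27 was higher at 0.86 ± 0.14 (SE; edgeR adjusted p = 7.4e-06). The Rps27l call was lost with another scaling and in 8 of the 16 fits that left out a mouse. Rps27l made up 12.1% ± 7.1 of the Rps27l and Rps27 UMIs in T (SD, n = 11), against 34.4% ± 11.5 in CM (SD, n = 14). FB, EC and MP lay between them, with means of 26.98%, 25.3% and 34.2%.

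The T cell sums also carried RNA of other cells. Their 7 cardiomyocyte markers summed to between 412 and 20351 CPM, their 5 erythroid genes to between 8168 and 368075, the 4 B cell markers to between 20.2 and 974, and the 7 T cell markers to between 38.6 and 6692. In 2 of the 11 sums, those of 8w replicate 3 (974 against 38.6) and 11w replicate 2 (446 against 381), B cell markers were above T cell markers. The members called in T were 49 without 8w replicate 3 and 42 without 11w replicate 2. The part of this RNA in the T results was not tested. Among T subclusters, T4 and T5 had the highest member shares, 6.32% and 5.93%, and the lowest were those of T2 and T1, 2.46% and 4.22%. T2 carried cardiomyocyte markers at 46743 CPM, close to the 53887 of all CM together.

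In CM the pattern ran the other way, with 22 members called lower and 1 higher, where 23.1% of all genes tested were called, 5.14% lower and 17.9% higher. The median log2 fold change of members was -0.25, against 0.31 over all genes. The lower members came from both subunits, with 13 of 31 small subunit genes and 9 of 49 large subunit genes lower. Rpl3 was lowest among those called at -1.03 ± 0.16 (SE; edgeR adjusted p = 1.2e-06), with a median of 74.7 CPM over 14 mice and a range of 55.8 to 141. Rps16 followed at -0.97 ± 0.16 (SE; edgeR adjusted p = 4.8e-06) and Rps27 at -0.77 ± 0.15 (SE; edgeR adjusted p = 6.6e-05). The 1 member called higher was Rpl3l, at 2.75 ± 0.40 (SE; edgeR adjusted p = 2.6e-07). When sums were made per mouse, plate and type and compared within plates, 3 members were called in CM, 1 higher and 2 lower, where 13.0% of all genes were called, 11.9% higher and 1.09% lower. In T the same comparison called 53 members, each of them higher, where 19.5% of all genes were called, 7.45% higher and 12.1% lower. The CM count rested on several mice: it was 14 without 0w replicate 1, 13 without 2w replicate 1, 14 without 2w replicate 2 and 15 without 5w replicate 3.

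**Figure D2:**
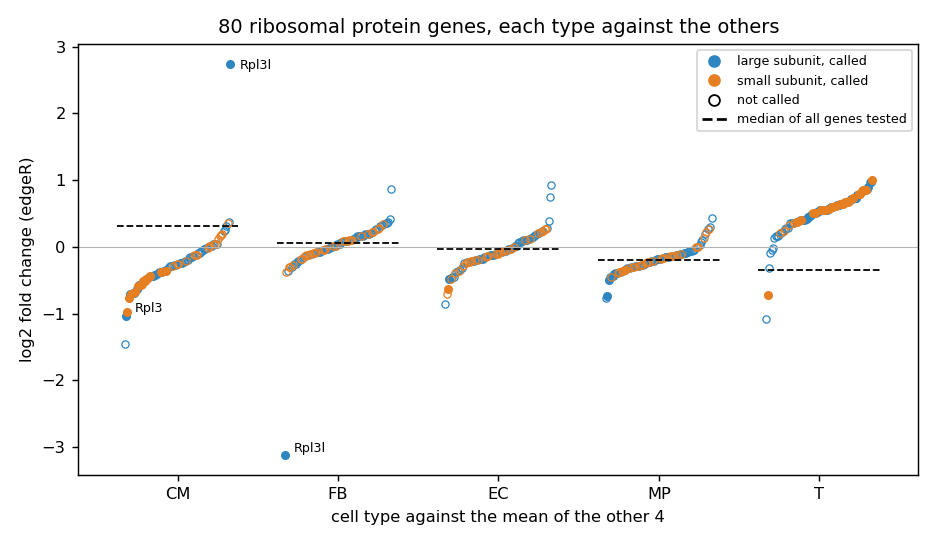
Each point is 1 of the 80 genes, ordered by its log2 fold change (vertical axis, edgeR) in the type named on the horizontal axis against the mean of the other 4, with filled points called at an adjusted p under 0.05 and a dashed line at the median of all genes tested. In T the members lie mostly above that line (median 0.54 against -0.35), and in CM mostly below it (median -0.25 against 0.31) with Rpl3l at 2.75.

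The other types differed little. In FB, 1 of 80 members was called, Rpl3l at -3.12 ± 0.59 (SE; edgeR adjusted p = 4.8e-05), where 19.0% of all genes were called, 11.5% higher and 7.42% lower. With library size as the only scaling, FB instead had 4 members higher and 1 lower, and without 5w replicate 1 it had 2 higher and 1 lower. EC had 2 members lower, Rpsa, which is also known as a laminin receptor, and Rpl38, where 10.7% of all genes were called, 7.19% higher and 3.49% lower. Their log2 fold changes were -0.63 ± 0.18 and -0.49 ± 0.16 (SE; edgeR adjusted p = 0.0143 and 0.0439). The EC direction turned with library size as the only scaling, which called 2 members higher and 0 lower. In MP, 5 members were lower, where 14.2% of all genes were called, 8.34% higher and 5.85% lower. The 3 lowest, all of the large subunit, were Rpl36a at -0.73 ± 0.19, Rpl31 at -0.50 ± 0.15 and Rpl4 at -0.43 ± 0.13 (SE; edgeR adjusted p = 0.0045, 0.0194 and 0.0180). The medians of members in these types stayed close to those of all genes: 0.05 in FB against 0.05, -0.10 in EC against -0.03 and -0.18 in MP against -0.19. Among subclusters, the member share ran in FB from 1.79% (FB7) and 2.54% (FB8) to 3.49% (FB5) and 3.58% (FB10). In EC it ran from 2.31% (EC7) and 2.40% (EC3) to 3.29% (EC4) and 3.6% (EC9), and in MP from 1.99% (MP1) and 2.64% (MP2) to 3.28% (MP4) and 3.29% (MP9). FB7, FB8, EC7, MP1 and MP2 carried cardiomyocyte markers at 12231 to 57577 CPM, while EC3 had 6392, below EC6 (12808, with a member share of 2.74%). Their part in the low shares was not tested. The EC count was between 1 and 5 and the MP count between 1 and 6 when single mice were left out, with MP at 1 without 5w replicate 2.

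Genes that act beside the ribosome were followed in 4 lists, whose counts stand against the 17.9% higher and 5.14% lower of all genes in CM and the 7.41% higher and 15.3% lower in T. Ribosome biogenesis genes, which make and assemble the subunits in the nucleolus, had 7 of 38 higher and 1 lower in T, with Npm1 at 1.45, Nop56 at 1.37, Nop58 at 1.20 and Ncl at 0.74 on the log2 scale. The same list had 3 higher and 3 lower in CM, where Npm1 was at -0.85 and Nop58 at -1.08, and Rrp12 and Bysl at 2.61 and 2.45. Its median was 0.44 in T, against -0.35 over all genes, and 0.16 in CM, against 0.31. Among 10 elongation factors, CM had 3 higher and 1 lower. The 2 forms of the factor that brings aminoacyl-tRNA to the ribosome moved apart there, with the muscle form Eef1a2 at 2.75 and the general form Eef1a1 at -0.93. In T, 1 elongation factor was higher, Eif5a at 1.01. Of 35 initiation factors, CM had 8 higher and 1 lower, the latter the poly(A) binding protein Pabpc1 at -1.004, and T had 4 higher and 1 lower, with Pabpc1 at 0.86. Mitochondrial ribosomal proteins, which serve the separate ribosome of mitochondria, went opposite to the cytosolic set in CM: 22 of 73 tested were higher and none lower, with Mrps35 at 1.95 and Mrpl12 at 1.61. Their median in CM was 0.74, against -0.25 for the cytosolic members and 0.31 for all genes. In FB, EC and MP each list had at most 2 genes called higher and at most 2 called lower.

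Between stages, 0 of the 80 members were called by the test over all genes. The 4 mice of 0w and 2w formed the early side, and were compared with 8w and 11w together and with 5w, so both comparisons share their early mice. Both comparisons in each of the 5 types called 0 members by edgeR's quasi-likelihood test. All genes gave few calls too: 0.00629% in CM (8w and 11w), 0.231% in T (5w) and 0.0% in the other 8. For 8w and 11w, an unadjusted p under 0.05 was reached by 2 members in CM, 4 in FB, 2 in EC, 3 in MP and 1 in T, and DESeq2 called 1, 1, 1, 0 and 1 of them. For 5w, the unadjusted counts were 4, 15, 4, 4 and 0, and DESeq2 called 2, 1, 0, 0 and 0. The shares of all genes that passed in these ways are not given here, so the counts have no background to be read against. In the FB comparison of 5w, 68 of 80 members had values below 0 and 12 above 0, where 54.4% of all genes were above 0. The members' median was -0.46 against 0.14 over all genes. This was not particular to the members. Medians there were -0.78 for mitochondrial ribosomal proteins, -0.44 for initiation factors, -0.43 for elongation factors and -0.10 for ribosome biogenesis genes. The 5w side was replicates 1, 2 and 3, with 218, 29 and 43 FB cells. The members with the smallest p there were Rpl35 at -1.32, Rpl34 at -1.01 and Rps16 at -1.004, with edgeR adjusted p = 0.295 for each.

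In CM the member share was 1.70% and 1.68% at 0w, 1.96% and 1.90% at 2w, and 1.41% to 2.27% in the 5 mice of 5w. It was 1.81% to 2.44% at 8w, and 1.00% and 1.16% at 11w. The 11w mice were below all others, and the rest overlapped. Of the 11w cardiomyocytes, 170 of 175 and 221 of 223 came from plate K, with mitochondrial shares of 88.2% and 85.4%, so plate, mitochondrial share and stage cannot be told apart. In T, both 0w mice were low (3.50% and 3.17%), and 1 mouse of 8w was lower (2.88%). That mouse, replicate 3, had 13 T cells, with erythroid genes at 368075 CPM of non-mitochondrial UMIs. In 0w replicate 2 the member share was 2.10% on plate A and 3.93% on plate B. Rpl3l made up 35.6% of its pair with Rpl3 in those plate A cells. The part of RNA of other cells in these T shares was not tested. In the CM comparison of 5w, Rpl4 and Rpl36, both of the large subunit, were at log2 fold changes of 0.85 ± 0.26 and -0.89 ± 0.31 (SE; edgeR adjusted p = 0.356 and 0.419).

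In cardiomyocytes the balance of the pair Rpl3l and Rpl3 differed between early and late stages. As a share of the UMIs of the pair, which needs no scaling between mice, Rpl3l in cardiomyocytes made up 59.0% and 62.4% at 0w and 57.7% and 49.1% at 2w. At 5w it was 5.06% in replicate 1 and 51.9%, 42.9%, 57.7% and 45.7% in replicates 4 to 7. At 8w it was 22.8%, 40.9% and 18.0%, and at 11w 13.4% and 4.80%. All 5 mice of 8w and 11w lay below all 4 early mice, whereas the 5w mice overlapped the early ones. The mean fell from 57.0% ± 5.7 (SD, n = 4) to 19.99% ± 13.4 (SD, n = 5), a difference of -37.0 points (exact permutation test over mice, two-sided, p = 0.0159, the smallest these group sizes allow, and 0.0317 adjusted over 2 comparisons). For 5w the difference was -16.4 points (exact permutation p = 0.0794, adjusted p = 0.0794). Exact 95% binomial intervals for single mice, which cover counting error only, were narrow beside these differences, for example 57.4% to 60.5% for 0w replicate 1 (3953 UMIs of the pair) and 3.35% to 6.65% for 11w replicate 2 (708 UMIs).

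**Figure D3:**
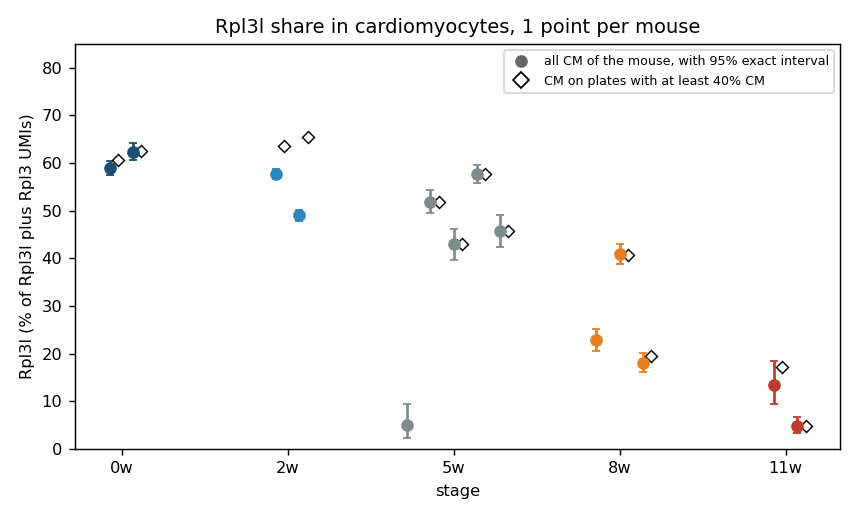
Filled points show Rpl3l as a percent of Rpl3l plus Rpl3 UMIs (vertical axis) in the cardiomyocytes of 1 mouse, by stage (horizontal axis), with the exact 95% binomial interval, and open diamonds the same on plates where at least 40% of cells were CM. Mice of 8w and 11w lie between 4.80% and 40.9%, below the 49.1% to 62.4% of 0w and 2w.

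The share also differed between plates of the same mouse. For 2w replicate 2, Rpl3l was 65.6% on plate C, where 82.6% of cells were CM, and 1.30% on plate D, where 15.9% were. For 2w replicate 1 it was 63.5% and 19.9% on those plates, and for 0w replicate 1 it was 60.6% on plate A and 0 of 107 UMIs of the pair on plate B, which allows up to 3.39% (exact 95% binomial interval). Low-CM plates thus gave low shares also early, and plate E, with 14.0% CM, held 5w replicate 1 and 8w replicate 1. A comparison restricted to plates with at least 40% CM was therefore added after these values were seen. Those plates still differed in CM content: A and C, with the early mice, had 77.6% and 82.6%, J (8w) 86.5% and K (11w) 43.1%. The part of that difference was not tested. On those plates the early mice had 60.6%, 62.4%, 63.5% and 65.6%, the 5w mice 42.9% to 57.7%, and the late mice 40.6%, 19.5%, 17.1% and 4.80%. Both differences were then free of overlap, at -42.5 points for 8w and 11w and -13.5 points for 5w (4 mice a side, exact permutation p = 0.0286 for each, the smallest possible, adjusted p = 0.0286). The cut left out plates B and D, with the low early shares, and plate E, with the low value of 5w. The loss of overlap at 5w therefore follows in part from the choice of plates, and these p-values only describe the plates chosen. Within plate E, which holds both stages, the 8w mouse had 22.8% and the 5w mouse 5.06%. Without cells of plates G, H and K, the 3 mice of 8w differed from the early mice by -29.8 points (exact permutation p = 0.0571, the smallest possible). Leaving out any single mouse gave differences of -42.3 to -33.2 points for 8w and 11w and of -20.6 to -7.48 points for 5w, the last without 5w replicate 1. Without 1 early or late mouse, the 8w and 11w adjusted p (exact permutation) was 0.0571 or 0.0714, other than 0.0357 without 2w replicate 2.

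The 2 genes of the pair were also followed apart. In CPM of non-mitochondrial UMIs, Rpl3l in CM was 143 and 175 at 0w, 175 and 191 at 2w, 91.5, 85.4 and 33.4 at 8w, and 12.1 and 8.95 at 11w, with no overlap between early and late mice. Rpl3 was 99.4 and 105 at 0w, 128 and 198 at 2w, 310, 123 and 152 at 8w, and 78.1 and 177 at 11w, which overlap. In the test over all genes, the 8w and 11w log2 fold change was -2.27 ± 0.58 for Rpl3l (SE; edgeR adjusted p = 0.343) and 0.64 ± 0.31 for Rpl3 (SE; edgeR adjusted p = 0.543), so neither was called. Rpl3l was called in that comparison by DESeq2, with no filter on low counts and without 5w replicate 1. The summed cardiomyocyte markers moved with Rpl3l: they were 41877 to 80863 CPM in the early mice and 12699 to 43931 in the late mice. Markers of other cells differed too: erythroid genes in the CM sums were at 54468 and 88449 CPM in 8w replicate 3 and 11w replicate 2, against 4249 to 24347 in the early mice and 3756 to 19260 in the other late mice. In 8w replicate 1, fibroblast and mural cell markers were at 7117 and 2194 CPM, against at most 3497 and 826 in the early mice. Against Myh6, the main heavy chain of adult mouse heart myosin, Rpl3l had 9.17 to 19.7 UMIs per 1000 Myh6 UMIs in the early mice. The late mice had 62.0, 12.9, 10.6, 3.84 and 2.71 UMIs per 1000, so on this scale 3 of 5 late mice did not lie below the early range. The part of these markers in the Rpl3l result was not tested further. Fewer Rpl3l UMIs cannot tell less Rpl3l per cell from fewer cells with it, and the share of CM with any Rpl3l UMI went from 58.2% to 64.8% in early mice to 4.04% to 28.7% in late ones. That share also depends on the UMIs per cell, which differed between mice. Non-mitochondrial UMIs were 16319429 in 551 CM of 0w replicate 1 and 9764166 in 383 of 0w replicate 2. They were 3799495 in 223 CM of 11w replicate 2 and 3266432 in 123 of 8w replicate 1. The part of this depth was not tested.

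Cardiomyocyte subclusters spanned a wide range of the pair. Pooled over mice, Rpl3l made up 67.4% in CM2 and 62.3% in CM3, and 36.4% in CM7 and 9.33% in CM5. Single early mice gave most cells of the first 2: 396 of 420 CM3 cells came from 2w replicate 1 and 300 of 472 CM2 cells from 2w replicate 2. Subcluster, mouse and stage can therefore not be told apart in CM3, where only 2 mice, both of 2w, had at least 10 cells. The order depended on the mice: the median over mice was 75.3% in CM2, 59.6% in CM3, 33.3% in CM7 and 7.50% in CM5, and lowest in CM11 at 6.32%, where pooling gave 44.3% and single mice ran from 4.92% to 81.5%. CM5 also had the lowest cardiomyocyte marker level of the CM subclusters, at 19100 CPM. The highest pooled member shares were those of CM5 (2.41%) and CM4 (2.24%), and the lowest those of CM9 and CM11, at 1.25% and 1.26%. By the median over mice, CM7 (2.31%) and CM4 (2.21%) were highest, CM5 was at 2.02% with a range of 0.99% to 4.18%, and CM11 (1.25%) and CM9 (1.30%) were lowest. Within CM2, 6 mice of 0w, 2w and 5w had Rpl3l shares of 68.5% to 83.3%, 8w replicate 2 had 55.1% and 11w replicate 2 had 7.38%. Within CM4, the early mice had 26.0% to 56.4%, and the 4 late mice 35.6%, 1.04%, 0 of 77 UMIs and 0 of 199 UMIs. The subclusters are the authors' own grouping of these cells, so these values are a description.

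Outside cardiomyocytes the pair was mostly Rpl3. Rpl3l made up 1.31% ± 1.85 of the pair in FB (SD, n = 12), 4.38% ± 5.03 in EC (n = 13), 5.69% ± 8.94 in T (n = 11) and 11.6% ± 12.6 in MP (n = 16). It was not spread evenly there. Subclusters MP1 and T2 had Rpl3l shares of 42.5% and 46.6%, FB8 had 31.3% and EC7 22.8%. These 4 subclusters had summed cardiomyocyte markers of 57577, 46743, 28912 and 41552 CPM. T5, FB2 and FB3, with markers at 997, 1327 and 1226, had Rpl3l shares of 1.22%, 0.14% and 0.044%. The share did not follow the markers everywhere: FB7, with markers at 12231 CPM, had 1 Rpl3l UMI among 142 of the pair, whereas T3 (7087 CPM) had 13.1% and EC8 (3491 CPM) had 8.30%. These subclusters were picked after their values were seen. Over all cells, Rpl3l had 13.8 UMIs per 1000 Myh6 UMIs in CM, and 11.5 in FB, 14.3 in EC, 12.6 in MP and 24.5 in T.

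**Figure D4:**
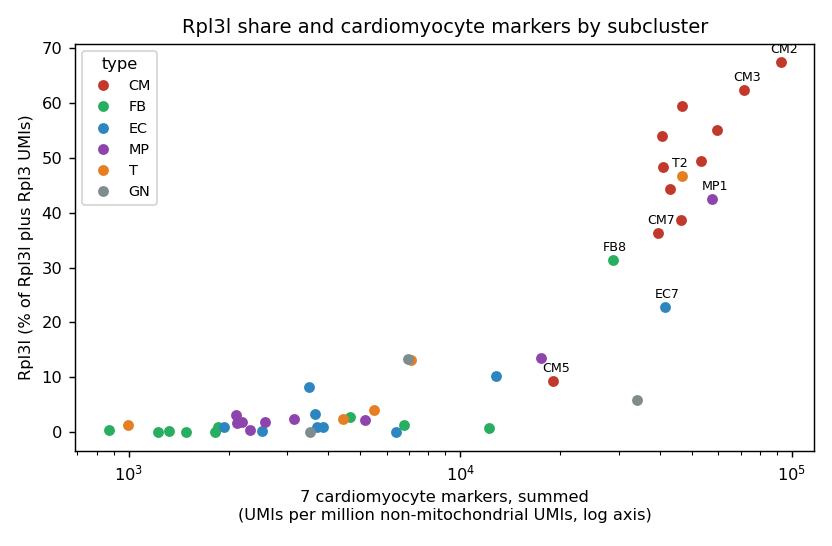
Each point is 1 of the authors' subclusters, with the summed level of 7 cardiomyocyte markers on the horizontal log axis and the Rpl3l percent of the pair on the vertical axis, coloured by type. T2, MP1, FB8 and EC7 lie to the right among the CM subclusters in marker level, with Rpl3l shares of 46.6%, 42.5%, 31.3% and 22.8%.

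The paralogs Rpl10l and Rpl39l were rare, and in EC, FB and T both 0w mice had higher levels than all later mice. Neither gene was called between stages. The share of all genes with this order is not given here, so the order has no background to be read against. In EC, Rpl10l was at 51.3 and 39.7 CPM of non-mitochondrial UMIs in the 2 mice of 0w, at 8.03 or lower in both 2w mice, and at 4.01 or lower in the 9 later mice. The EC mice of 0w gave 805 of the 893 Rpl10l UMIs of that type. In T, Rpl10l was at 25.7 and 36.0 at 0w and at 13.5 or lower in all 9 others, in FB at 16.0 and 21.9 against 14.9 or lower, and in CM at 3.89 and 6.43 against 2.78 or lower. In MP the ranges met, with 5.94 and 15.02 at 0w and up to 10.2 at 5w. Rpl39l followed the same order in EC, with 28.3 and 24.6 at 0w, 8.21 or lower in the other mice and 0 UMIs in all 7 mice of 5w and 8w. In FB it was at 18.6 and 18.8 at 0w and at 12.8 or lower later, and in T at 15.4 and 20.4 against 0.295 or lower. In MP, Rpl39l was highest in 2w replicate 2 (8.14), above the 7.61 and 4.84 of 0w, and in CM 2w replicate 1 (1.95) lay between the 0w mice (2.21 and 1.74). As a share of the pair with Rpl10, Rpl10l made up 16.0% of UMIs in EC at 0w on average and 2.24% at 2w. Mice of 0w came only from plates A and B, which held no other mice, so stage and plate cannot be told apart. Both are close copies of their partners, and how reads that fit both were assigned is not given in the sources used here.

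**Figure D5:**
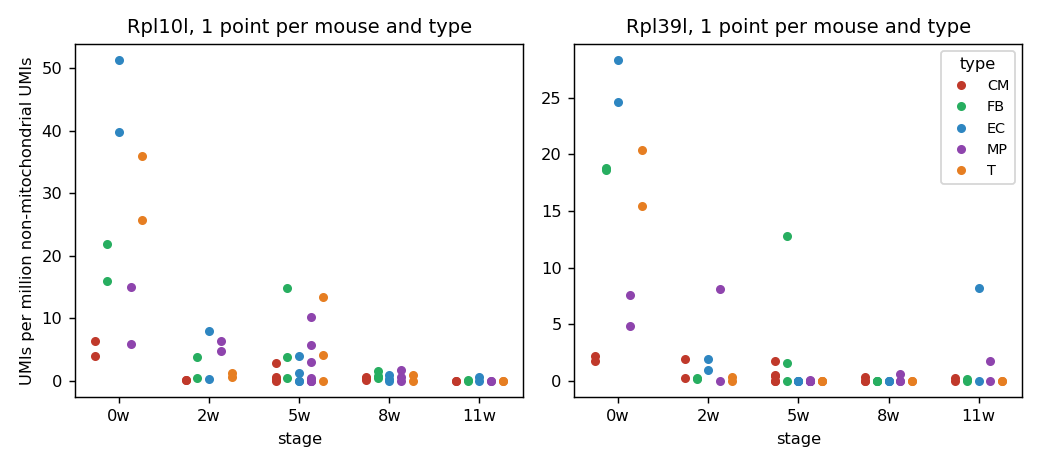
The vertical axes give CPM of non-mitochondrial UMIs for Rpl10l (left) and Rpl39l (right), each point 1 mouse and type, by stage on the horizontal axis. In EC, FB and T both 0w points lie above all later points of the same type, with Rpl10l at up to 51.3 and Rpl39l at up to 28.3.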

How the data were processed

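Counts were used as deposited by the authors, as whole UMI numbers per gene and cell with no normalization. Per the submitters' processing notes, tools included Subread 1.4.6-p1, featureCounts and STAR 2.5.2b, with GRCh37 and mm10 among builds. The role of each, the annotation, the strand setting and UMI collapsing: not given in the sources used here. The members and lists were chosen with earlier results of these data known.

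UMIs were summed per mouse and type (at least 10 cells) and fitted over all genes with edgeR 4.0.16 (quasi-likelihood, trimmed mean of M-values, filterByExpr) in R 4.3.3, and checked on simulated data. DESeq2 1.42.0 was an alternative. Stage fits held all 5 stages, and type fits had the mouse as a block. All 80 members passed the filter. The Rpl3l share was tested by exact permutation over mice (scipy 1.17.1). Nothing says how mice were housed or operated together, and the tests take mice as independent. Stage p-values set a difference against the spread between these mice, which shared plates. Type p-values set it against the spread of type differences over mice. No doublets were removed, and 3 cells without a type were left out. Named were the paralog pairs, up to 3 called members at each end of the fold changes per comparison, or, where 0 were called, those with the smallest p. Genes given for their pseudogene share were picked after their values were seen. A result that this rule would name is not reported here.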

Additional observations from a re-analysis of the deposited data

Results flagged for a closer look

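The Rpl3l share of the Rpl3l and Rpl3 UMIs in cardiomyocytes of 5w replicate 1 was 5.06%, far below the 42.9% to 57.7% of the other 4 mice of 5w. It rests on 178 UMIs of the pair in 54 cells, with an exact 95% binomial interval of 2.34% to 9.38%. These cells came from plate E and had summed markers of fibroblasts and mural cells at 9147 and 4253 CPM of non-mitochondrial UMIs, against at most 7117 and 2194 in the other mice's cardiomyocytes. Their part in the value was not tested. Among the 4 groups of 4 to 10 mice examined this way it was the 1 that stood apart, and chance gives about 1 in 20.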

How the results depend on the processing

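Counts of called members depended on scaling and filtering. Shares of all genes called are given above for the main fits and, in CM and T, within plates. They are not given for the other settings, so the counts below describe dependence on processing only. In CM against the other types the 23 became 42 with DESeq2, 35 with RLE size factors, 57 with library size only, 10 with no filter on low counts and 3 within plates. In T the 46 became 14 with no filter and lay between 32 and 64 otherwise. In EC the 2 became 6 with DESeq2, 5 with RLE, 8 without mitochondrial genes, 13 within plates, 0 with no filter, 1 with pseudogene rows added, without plates G, H and K or without the plate E mice, and 2 in the other direction with library size only. In FB the 1 became 4 with DESeq2, 2 with RLE, with pseudogene rows added or without plates G, H and K, 3 within plates, and 5 and 3, mostly higher, with library size only and without the plate E mice. In MP the 5 became 0 with no filter, 2 without plates G, H and K and 3 without the plate E mice. Library size alone moved the median of all genes in CM from 0.31 to -0.10, in EC from -0.03 to 0.08 and in T from -0.35 to -0.17. By stage, CM at 5w gave 2 with DESeq2, 2 with the replicate block and 3 without the plate E mice. Without plates G, H and K only 5w replicate 1 was left at 5w in CM, so that count is not given. CM at 8w and 11w gave 1 with DESeq2, with no filter and without the plate E mice. FB at 5w gave 1 with DESeq2 and 2 without the plate E mice, and DESeq2 gave 1 in FB, EC and T at 8w and 11w. The block changed no other count. Same-numbered mice correlated above 0.1 in 8 of 16 pairs in CM and 0 of 21 in FB.

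Leaving out single mice gave 13 to 26 calls in CM, 33 to 49 in T, 1 to 5 in EC, 1 to 3 in FB and 1 to 6 in MP. The EC count moved past 1.5 times without any of 0w replicate 2, 2w replicate 1, 5w replicates 1, 2, 5 and 7, 8w replicates 2 and 3 and 11w replicate 2. The FB count did so without 0w replicate 1, 5w replicates 1 and 7 and 8w replicates 2 and 3, and the MP count without 2w replicates 1 and 2, 5w replicates 1 and 2 and 8w replicate 1. By stage it gave 0 to 1 in CM in both comparisons, 0 to 2 in FB at 5w and 0 elsewhere, each gain coming without 5w replicate 1. The Rpl3l share difference ranged from -42.3 to -33.2 points for 8w and 11w and from -20.6 to -7.48 for 5w. The 8w and 11w adjusted p (exact permutation) was 0.0571 or 0.0714 without 1 early or late mouse, other than 0.0357 without 2w replicate 2. Without the plate E mice the difference was -37.7 (exact permutation p = 0.0286, the smallest possible, adjusted p = 0.0571). Without plates G, H and K it was -29.8, where too few mice were left to pass the threshold. For 5w the difference passed without 2w replicate 2 (-19.0, exact permutation adjusted p = 0.0357), a planned setting. It also passed with cells weighted equally (-15.0) and on plates with at least 40% CM (-13.5), both chosen after seeing the data. The 5w comparison without plates G, H and K was not run, since 1 mouse was left. Among single genes, Rpl3 in CM at 5w (0.10) turned to -0.062 with no filter and ranged from -0.047 (without 2w replicate 1) to 0.22 when single mice were left out, and Rpl39l in MP at 8w and 11w (-3.33) ranged from -5.84 to 0.10, the last without 2w replicate 2. The cause of these changes was not tested. Rpl39l and Rpl10l had too few UMIs to follow in most later mice.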

Other observations

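GN cells entered no comparison, since the labels do not explain the name. Over all 181 GN cells the members took 1.58% of non-mitochondrial UMIs, against 1.80% over all CM. These pool different mice: among the 5 mice with at least 10 cells of both, GN was above CM in 3. The subcluster GN1 had a pooled share of 0.891%, the lowest of all subclusters, and GN0 had 2.06%.

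Some ribosomal protein genes lie outside the symbol rule. Rpl22l1, a copy of Rpl22, made up 21.0% ± 8.7 of its pair in CM (SD, n = 14), 29.7% ± 8.3 in FB (n = 12) and 29.0% ± 16.3 in T (n = 11). It was higher in T against the other types at 0.82 ± 0.31 (SE; edgeR adjusted p = 0.0465), as were Rpl36al at 0.88 ± 0.26 and Rps3a1 at 0.60 ± 0.16 (SE; edgeR adjusted p = 0.0099 and 0.0042). Rpl7l1 was at 0.09 ± 0.44 there (SE; edgeR adjusted p = 0.914).

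The large subunit's part of the member UMIs was 51.5% ± 1.5 in CM (SD, n = 14) and 47.7% ± 2.8 in T (SD, n = 11), and CM was above T in 9 of 9 mice with both.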
